A study of Mus musculus with 4 samples.

Results

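A set of 7 interferon regulatory factor (IRF) genes, Irf1, Irf2, Irf3, Irf4, Irf5, Irf7 and Irf9, was examined for open chromatin in microglia, the resident macrophages of the brain. Every deposited peak that overlapped the body of 1 of these 7 genes or the 10 kb on either side of it was taken, with gene positions from GENCODE M21 on GRCm38. This gave 295 of 676057 deposited peaks. After merging across libraries it gave 77 of 155546 regions. The rule that assigns peaks to genes uses positions and no measured value.

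Accessibility was measured by ATAC-seq, in which the Tn5 transposase inserts adapters into open DNA. The labels describe 2 WT and 2 IRF8KO libraries of sorted microglia, all from untreated C57BL/6 mice aged 3 months. IRF8KO names a knockout of Irf8. The sources used here do not say which cells lost the gene or which exons were removed, and they do not say whether the libraries of a genotype came from separate mice, so p-values measure the spread between these libraries only. In a population of sorted cells, fewer cells with an open site and less opening per cell cannot be told apart.

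IRF proteins are transcription factors that recognise GAAA repeats, and they are best known for switching on interferons and the genes that interferons induce. IRF3, IRF5 and IRF7 wait in the cytoplasm until kinases downstream of Toll-like receptors and nucleic acid sensors phosphorylate them, whereas IRF9 acts after type I interferon has bound its receptor. IRF1 and IRF2 compete for the same elements as activator and attenuator, and IRF4, like IRF8, binds DNA weakly alone and pairs with the ETS factor PU.1 at composite ETS-IRF elements. Both PU.1 and IRF8 are known to be needed for normal microglia.

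The WT libraries held 46948938 and 48896408 tags and the IRF8KO libraries 78793572 and 66224648. Depth therefore followed genotype, as did tag size (50 and 49 bp), and neither can be told apart from it. Each value below is the highest summit pileup in a region per 1000000 tags of its library, abbreviated ppm. The lowest pileup listed in any library was 6 to 8, or 0.102 to 0.128 ppm. A strict peak is one with a deposited −log10 q of at least 2. Median log2 levels over shared regions ranged from -1.17 (IRF8KO replicate 1, which stood apart) to -0.38 (WT replicate 1), and the IRF8KO median was lower by 0.30, so log2 differences are given after each library was centred on its median. Strict promoter peaks were found at 7 of 7 microglial marker genes in both WT libraries and at 4 and 5 of 7 in IRF8KO, with summed levels of 13.1 to 17.4 and 6.21 to 11.1 ppm. The absent ones included Sall1, with 2.11 and 2.05 ppm in WT, no peak in IRF8KO replicate 1 and 0.151 in replicate 2. The border macrophage marker Mrc1 had 0.205 to 0.213 ppm in WT and 0.470 to 0.664 in IRF8KO, whereas Cd163 and Lyve1 had no region. Summed levels of neuronal, astrocytic, lymphoid and monocyte or neutrophil markers stayed at or below 0.447 ppm in all 4 libraries. Oligodendrocyte markers summed to 1.68 and 1.12 ppm in WT and 0.279 and 0.770 in IRF8KO, with Mog at 0.980 and 0.675 in WT, no peak in IRF8KO replicate 1 and 0.166 in replicate 2. Endothelial markers summed to 0.777 to 1.12 ppm. Pecam1 among the endothelial ones was called higher in IRF8KO (0.192 and 0.245 ppm in WT, 0.533 and 0.876 in IRF8KO), as was Mrc1. Cldn5 had peaks in WT alone (0.256 and 0.164 ppm), and Flt1 had 0.426 and 0.368 ppm in WT and 0.254 and 0.242 in IRF8KO. The part of these differences in the results below was not tested.

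Accessibility of the 7 genes differed between genotypes at 13 of 44 regions (29.5%, against 25.9% of all regions compared). Of the 13, 1 lay within 1 kb of the start of its gene, other transcript starts not counted. Values could be compared at 44 of the 77 regions (57.1%, against 37.6% of all regions), those with a deposited peak in every library. Of these 44, 9 were lower in IRF8KO (20.5%, against 12.5% of all 58550 regions compared), 4 were higher (9.09%, against 13.4%), and 31 did not pass limma's test at an adjusted p of 0.05. Without centring the member counts were 4 lower and 1 higher, and over all regions the calls moved from 7304 lower and 7847 higher (51.8% higher) to 3911 and 1637 (29.5% higher). Irf5 and Irf2 each held 4 of the 9 lower regions and Irf7 held 1, while 2 of the 4 higher regions were at Irf7, 1 at Irf1 and 1 at Irf4. No region of Irf3 or Irf9 was called.

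The members' median log2 difference was -0.15, against -0.0018 over all regions compared, and single regions ranged from -2.42 to 2.49. On the centred scale both IRF8KO libraries lay below both WT libraries at 18 of the 44 regions (40.9%, against 29.0% of all regions compared), above them at 10 (22.7%, against 29.6%), and overlapped at 16. Another 3 regions were WT-specific, meaning strict in WT replicates 1 and 2 and not listed at any strength in IRF8KO (3.9% of 77, against 5.58% of all regions). A further 2 were IRF8KO-specific (2.6%, against 3.86%). The other 28 of the 33 regions that could not be compared had neither pattern, with levels of 0.114 to 1.13 ppm, and 18 of the 77 were strict in 1 library only (23.4%, against 43.1%). Without WT replicate 1 there were 5 lower and 2 higher members (4708 and 5580 of 61645 regions in all), and without WT replicate 2 there were 6 and 7 (4894 and 6561 of 62645). Without WT replicate 1, 6 members were WT-specific (7.69%, against 17.9% of all regions) and 6 IRF8KO-specific (7.69%, against 6.09%). Without IRF8KO replicate 2 these were 6 (8.82%, against 10.3%) and 6 (8.82%, against 14.4%), and without IRF8KO replicate 1 the IRF8KO-specific ones were 8 (11.0%, against 15.0%). Without WT replicate 2 the members had 3 and 2 (4.05% and 2.7%, against 15.3% and 5.69%). The share of IRF8KO-specific members thus lay below or above that of all regions depending on the libraries used.

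**Figure D1:**
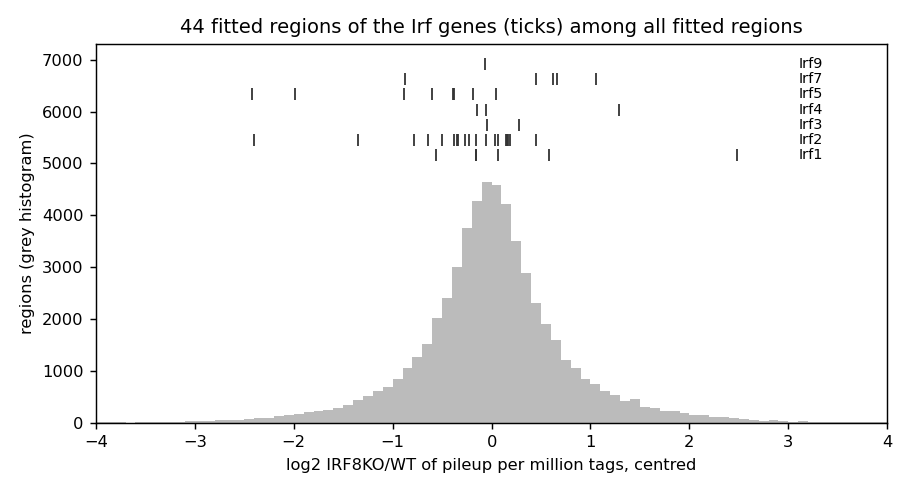
Histogram of the log2 IRF8KO/WT difference (x axis, centred) over all 58550 regions compared, with the number of regions on the y axis. Each tick is 1 of the 44 regions of the 7 genes, with a row per gene. Most ticks lie near 0, and the extreme ticks are at -2.42 for Irf5 and 2.49 for Irf1. The plot leaves out 34 regions beyond its x axis.

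At the gene starts, all 7 genes had a region with a strict peak in every library, and 6 of these promoter regions did not pass the test. Over all regions compared, promoter or not, 25.9% were called, and no share over promoters alone was computed. Irf2 had the most open promoter, in a region shared with the non-coding gene Gm16675, with 5.50 and 3.87 ppm in WT and 2.27 and 3.85 in IRF8KO. The IRF8KO libraries were both below WT there, although the replicates numbered 2 nearly touched, and the log2 difference was -0.34 (SE 0.17, adjusted p = 0.139). Only quantile normalisation of the 4 libraries carried it past the threshold, at -0.42 (adjusted p = 0.0355).

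Irf1 followed with 3.75 and 2.64 ppm in WT and 2.03 and 2.55 in IRF8KO (log2 difference -0.16, SE 0.18, adjusted p = 0.588). The Irf4 promoter reached 3.28 and 2.35 ppm in WT and 1.73 and 2.72 in IRF8KO (-0.05, SE 0.19, adjusted p = 0.880). The pairs overlapped at Irf4, and at Irf1 they overlapped once centred.

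Irf3 shares its promoter region with Bcl2l12, a gene that starts beside it. Levels there were 2.68 and 2.74 ppm in WT and 1.76 and 2.58 in IRF8KO (-0.04, SE 0.19, adjusted p = 0.912). The Irf9 region begins 350 bp inside the gene, around the start of another of its transcripts. It had 2.66 and 2.76 ppm in WT and 1.66 and 2.64 in IRF8KO (-0.07, SE 0.19, adjusted p = 0.852). In both, IRF8KO replicate 1 was the low library and the other 3 lay close together.

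Irf5 had the least open promoter of the 7 in the mean over libraries, 0.806 ppm. Its libraries read 1.04 and 0.941 ppm in WT and 0.558 and 0.680 in IRF8KO, so the pairs did not overlap, and the log2 difference was -0.38 (SE 0.27, adjusted p = 0.330). At Irf7 the order of the genotypes was the opposite. Its promoter had 0.980 and 1.33 ppm in WT and 1.17 and 1.84 in IRF8KO, which overlap as deposited and separate only once centred.

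The Irf7 promoter was the 1 promoter called, at 0.67 (SE 0.23, adjusted p = 0.0254). The call was lost without WT replicate 1 (0.26, adjusted p = 0.632), without centring (0.36, adjusted p = 0.723) and in a fit of the deposited fold enrichment (0.31, adjusted p = 0.548). It was lost too with limma's plain variance model (adjusted p = 0.148). By mean level the order was Irf2 (3.87 ppm), Irf1 (2.74), Irf4 (2.52), Irf3 (2.44), Irf9 (2.43), Irf7 (1.33) and Irf5 (0.806). Irf1, Irf4, Irf3 and Irf9, next to each other in this order, did not differ beyond their spread over libraries. Pileup at a region is not divided by its length, and the regions at the starts were 164 to 908 bp long.

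**Figure D2:**
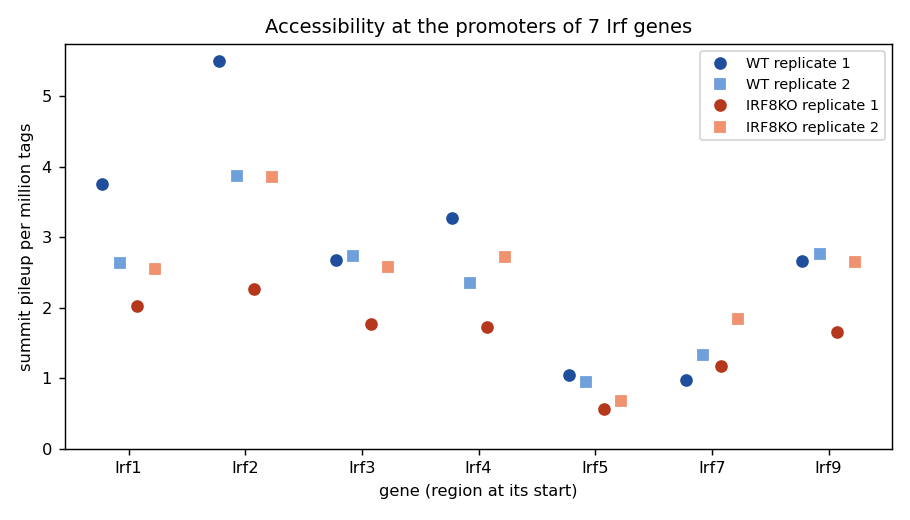
Summit pileup per 1000000 tags (y axis, from 0) at the promoter region of each of the 7 genes (x axis). Each point is 1 library, blue for WT and red for IRF8KO, circles for replicate 1 and squares for replicate 2. IRF8KO replicate 1 is the lowest point at all genes but Irf7, where WT replicate 1 is lowest at 0.980.

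Irf5 (chr6:29526625-29541871, + strand), which drives proinflammatory cytokine genes in macrophages, held 14 regions, and 4 of its 8 comparable regions were lower in IRF8KO. Both distal ones, at +10289 and +13884 bp from the gene start, fell most and remained called in all 10 alternative fits. They are printed here with the region at -2456 bp, the most open of the gene, and the IRF8KO-specific region at +461 bp. Bases in capitals match an ETS-IRF composite (GGAA and GAAA with 2 bases between them), PU.1 (GAGGAAGT), CEBP (TTGCNNAA) or NF-kB word on either strand. All are GRCm38, + strand. They are centred on the summit, except for the region at +10289 bp, which lies in a 3′ UTR and of which only the stretch around the word is given.
Irf5 -2456 bp, chr6:29524094-29524244: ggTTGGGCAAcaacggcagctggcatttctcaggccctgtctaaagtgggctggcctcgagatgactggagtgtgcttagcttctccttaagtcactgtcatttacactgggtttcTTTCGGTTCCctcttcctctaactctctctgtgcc
Irf5 +461 bp, chr6:29527011-29527161: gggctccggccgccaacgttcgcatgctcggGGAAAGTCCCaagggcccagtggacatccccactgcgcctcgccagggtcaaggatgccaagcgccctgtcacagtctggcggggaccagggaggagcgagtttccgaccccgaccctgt
Irf5 +10289 bp site, chr6:29536931-29536960: aggcctgaggTTTCATTTCCcctaaacatt
Irf5 +13884 bp, chr6:29540434-29540584: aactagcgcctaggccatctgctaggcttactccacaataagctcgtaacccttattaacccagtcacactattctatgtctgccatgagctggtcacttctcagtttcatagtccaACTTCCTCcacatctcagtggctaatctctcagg

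The region at +13884 bp (chr6:29540251-29540672, in an intron and within 1 kb of another annotated Irf5 transcript start) had 1.94 and 1.33 ppm in WT and 0.216 and 0.272 in IRF8KO. Both IRF8KO libraries lay far below both WT libraries. The log2 difference was -2.42 (SE 0.29, adjusted p = 1.42e-10), a ratio of 0.186, and it ran from -2.73 to -1.26 over the alternatives. It holds the PU.1 word printed above.

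The region at +10289 bp (chr6:29536628-29537115) had 2.13 and 2.02 ppm in WT and 0.292 and 0.619 in IRF8KO, again without overlap. The difference was -1.98 (SE 0.25, adjusted p = 1.16e-09), a ratio of 0.253, and it ran from -2.29 to -0.88. Its ETS-IRF word is on the minus strand of the printed site. The deposited pileup itself, not scaled to tags, was 23 and 41 in IRF8KO against 100 and 99 in WT.

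Upstream, the region at -2456 bp (chr6:29524022-29524604) had 5.99 and 4.56 ppm in WT and 2.49 and 3.14 in IRF8KO. It was open in every library, with the IRF8KO pair below the WT pair (-0.60, SE 0.17, adjusted p = 0.00368). Its neighbour at -3008 bp (chr6:29523336-29523736) had 1.75 and 1.35 ppm in WT and 0.406 and 1.12 in IRF8KO (-0.88, SE 0.25, adjusted p = 0.00474). There IRF8KO replicate 1 was the lowest library by far.

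These upstream calls kept to the threshold in 4 (-2456 bp) and 5 (-3008 bp) of 10 alternatives. At -2456 bp the adjusted p rose to 0.106 without WT replicate 1, 0.063 without WT replicate 2 and 0.0617 without IRF8KO replicate 2, and the fit of fold enrichment turned the direction (0.16, adjusted p = 0.776). At -3008 bp it rose to 0.0758 without WT replicate 1 and, with a difference of -0.42, to 0.257 without IRF8KO replicate 1, and fold enrichment gave -0.23 (adjusted p = 0.764). Neither was called without centring or with limma's plain variance model.

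The IRF8KO-specific region at +461 bp (chr6:29526965-29527149, in an intron) had 0.774 and 0.755 ppm in the IRF8KO libraries and no deposited peak in WT. It lies just downstream of the promoter region, which was open in both genotypes. The 4 comparable Irf5 regions that did not pass the test differed by -0.39 to 0.05. A further 5 regions were not listed in every library, for reasons not tested, and none exceeded 0.746 ppm.

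**Figure D3:**
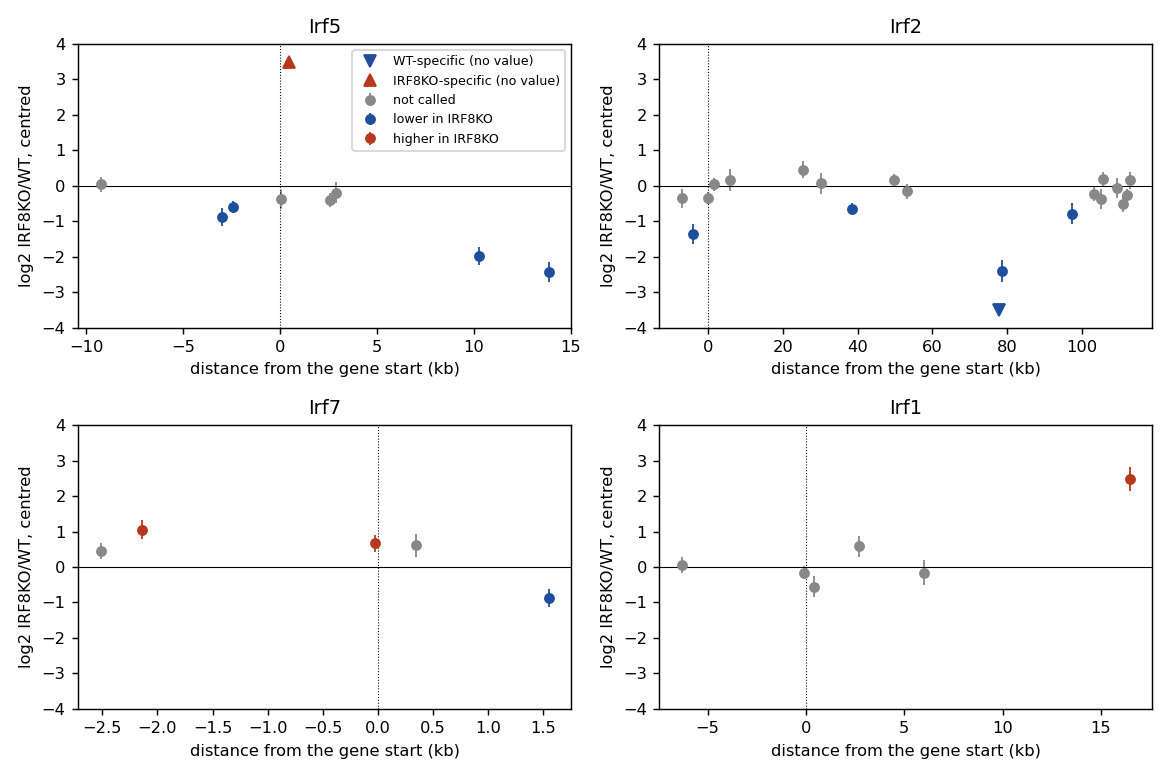
log2 IRF8KO/WT difference (y axis, centred, bars are the SE) against distance of the summit from the gene start (x axis, kb, in the direction of transcription) for Irf5, Irf2, Irf7 and Irf1. Triangles near the upper and lower edges mark genotype-specific regions, which have no measured difference. The lowest points lie in the downstream parts of Irf5 and Irf2, and the highest lies downstream of Irf1.

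Irf7 (chr7:141262706-141266481, - strand), which amplifies type I interferon production and is itself induced by interferon, held 5 regions. All 5 could be compared, and calls went both ways within a few kilobases: higher at the promoter and at -2145 bp, lower at +1554 bp. The upstream region and the promoter are printed to show that an ISRE word (GAAA repeated after 2 bases, the interferon-stimulated response element) is in the former. None of the words searched is in the printed promoter bases, which says nothing of factors with other motifs. Both are on the minus strand, GRCm38.
Irf7 -2145 bp, chr7:141268551-141268701, ISRE and CEBP in capitals: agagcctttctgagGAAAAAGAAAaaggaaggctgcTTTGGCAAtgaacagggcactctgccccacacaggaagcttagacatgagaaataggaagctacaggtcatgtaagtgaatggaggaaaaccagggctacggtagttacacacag
Irf7 promoter, chr7:141266482-141266674: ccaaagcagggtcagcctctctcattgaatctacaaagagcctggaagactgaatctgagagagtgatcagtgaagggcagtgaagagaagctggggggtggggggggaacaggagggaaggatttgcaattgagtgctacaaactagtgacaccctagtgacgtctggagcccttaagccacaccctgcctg

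At -2145 bp (chr7:141268510-141268743) the WT libraries had 0.532 and 0.654 ppm and the IRF8KO libraries 0.812 and 1.21. All IRF8KO values exceeded all WT values (1.05, SE 0.27, adjusted p = 0.0017). The call was lost without WT replicate 1 (0.72, adjusted p = 0.138), without centring (0.75, adjusted p = 0.437) and with fold enrichment (0.685, adjusted p = 0.137).

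The region at +1554 bp (chr7:141264840-141265349) lies in an intron of the coding transcripts and in an exon of a transcript with no coding frame. It is within 1 kb of another annotated Irf7 transcript start. WT had 1.28 and 1.33 ppm there and IRF8KO 0.457 and 0.725. The IRF8KO libraries were both lower (-0.875, SE 0.26, adjusted p = 0.00633), a call lost without WT replicate 2 (-0.70, adjusted p = 0.17) and without centring (-1.18, adjusted p = 0.12). The other 2 regions, at +343 and -2515 bp, differed by 0.62 and 0.45 and did not pass the test. The region at +343 bp also holds an ISRE word. Of the 5 Irf7 regions, 4 had a positive centred difference.

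Irf3 (chr7:44997648-45002848, + strand), the constitutively expressed activator of interferon beta, held 4 regions. Beside the shared promoter, the region at +1127 bp had 0.341 and 0.389 ppm in WT and 0.368 and 0.347 in IRF8KO. The genotypes overlapped there (0.28, adjusted p = 0.626). The remaining 2 regions did not exceed 0.383 ppm.

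Irf2 (chr8:46739732-46847458, + strand), the attenuator that occupies IRF1 sites, is the longest of the 7 genes at 108 kb and held 32 regions. Of 19 comparable regions, 4 were lower in IRF8KO and none was higher. The intronic region at +38549 bp was the most open of the gene over the 4 libraries, with a mean of 4.11 ppm (5.39 in WT and 2.84 in IRF8KO, where the promoter was more open). It is printed with the pair of neighbours at +77713 and +78606 bp, where the IRF8KO libraries had little or no signal, and with the promoter. Capitals mark ETS-IRF, ISRE, GAS (TTCNNNGAA, the interferon gamma activated site) and CEBP words, and all are GRCm38, + strand.
Irf2 promoter, chr8:46739495-46739731: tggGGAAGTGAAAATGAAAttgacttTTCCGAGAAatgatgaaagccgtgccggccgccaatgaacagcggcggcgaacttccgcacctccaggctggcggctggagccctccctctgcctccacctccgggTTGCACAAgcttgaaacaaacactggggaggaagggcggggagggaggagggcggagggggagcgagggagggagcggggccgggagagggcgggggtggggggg
Irf2 +38549 bp, chr8:46778206-46778356: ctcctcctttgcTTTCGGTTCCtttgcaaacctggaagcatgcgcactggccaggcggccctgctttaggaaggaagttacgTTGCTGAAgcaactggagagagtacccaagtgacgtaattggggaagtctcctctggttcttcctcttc
Irf2 +77713 bp, chr8:46817370-46817520: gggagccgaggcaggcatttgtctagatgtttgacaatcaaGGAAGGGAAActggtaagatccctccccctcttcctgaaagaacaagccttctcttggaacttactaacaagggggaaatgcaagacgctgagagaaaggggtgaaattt
Irf2 +78606 bp, chr8:46818263-46818413: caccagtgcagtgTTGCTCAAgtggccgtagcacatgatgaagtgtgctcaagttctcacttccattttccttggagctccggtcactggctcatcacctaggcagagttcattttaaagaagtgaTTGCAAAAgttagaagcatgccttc

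At +78606 bp (chr8:46818168-46818508) WT had 1.17 and 1.37 ppm and IRF8KO 0.140 and 0.272. This was the largest fall within the gene (-2.40, SE 0.31, adjusted p = 2.35e-09, ratio 0.190), and it was called in all 9 alternatives that could be computed, from -2.70 to -1.60. The peak in IRF8KO replicate 1 had a pileup of 11 and was not strict. Less than 1 kb upstream, the WT-specific region at +77713 bp (chr8:46817310-46817576) had 0.852 and 0.695 ppm in WT and no deposited peak in IRF8KO. Both regions lie in an intron of the coding transcripts and in an exon of a transcript with no coding frame.

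At +38549 bp (chr8:46778103-46778654) WT had 6.05 and 4.72 ppm and IRF8KO 2.21 and 3.47. The region stayed among the most open in every library while being lower in both IRF8KO libraries (-0.64, SE 0.16, adjusted p = 0.00139). The difference was as large or larger, without a call, when WT replicate 1 was left out (-0.65, adjusted p = 0.0603), without centring (-0.95, adjusted p = 0.101) and with limma's plain variance model (adjusted p = 0.0791). With fold enrichment it was -0.17 (adjusted p = 0.715).

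At -4017 bp (chr8:46735612-46735802, within the non-coding gene Gm16675) WT had 1.04 and 1.21 ppm and IRF8KO 0.279 and 0.453. Both IRF8KO libraries were well below WT (-1.35, SE 0.29, adjusted p = 0.000129), and only the fit of fold enrichment missed the threshold (-0.88, adjusted p = 0.053). At +97448 bp (chr8:46837051-46837380, intron) WT had 1.04 and 0.879 ppm and IRF8KO 0.279 and 0.725 (-0.79, SE 0.29, adjusted p = 0.0331). That call was lost without WT replicate 1 (adjusted p = 0.133), WT replicate 2 (0.16) or IRF8KO replicate 1 (-0.37, adjusted p = 0.456). It was lost too without centring (0.191), with fold enrichment (-0.38, adjusted p = 0.405) and with limma's plain variance model (0.0869).

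The other 15 comparable Irf2 regions differed by -0.50 to 0.45, 8 below 0 and 7 above. A region that could not be compared is described outside the naming rule, because its values were seen. At +71789 bp (chr8:46811326-46811660, intron) the IRF8KO libraries had 0.622 and 1.13 ppm, WT replicate 1 had 0.149 and WT replicate 2 had no peak. It lies upstream of the pair at +77713 and +78606 bp, its order of genotypes is the opposite, and it has no test.

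Irf1 (chr11:53770014-53778374, + strand), induced by interferon gamma and an activator of antiviral and antigen presentation genes, held 9 regions, and 1 of 6 comparable ones was called. That region lies downstream of the gene at +16484 bp, within the non-coding gene Gm12216. It had the largest positive centred difference of the 44 regions. The promoter is printed because it holds GAS and NF-kB words, in capitals (GRCm38, + strand).
Irf1 promoter, chr11:53769764-53770013: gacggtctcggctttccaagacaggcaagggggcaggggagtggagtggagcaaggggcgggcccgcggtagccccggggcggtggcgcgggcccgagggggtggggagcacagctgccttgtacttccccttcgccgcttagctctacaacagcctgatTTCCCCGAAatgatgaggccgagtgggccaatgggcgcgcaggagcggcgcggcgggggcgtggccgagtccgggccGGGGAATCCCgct

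At +16484 bp WT had 0.213 and 0.123 ppm and IRF8KO 0.698 and 0.770. The WT pileups were 10 and 6, the latter the lowest listed for that library, against 55 and 51 in IRF8KO. The difference was 2.49 (SE 0.34, adjusted p = 1.51e-08, ratio 5.60), and it was called in all 9 alternatives that could be computed, from 1.73 to 2.78. Of the 3 regions just upstream of it, at +13439, +15507 and +15766 bp, described outside the naming rule after their values were seen, none was in WT replicate 2. IRF8KO levels there were 0.432 and 0.544, 0.165 and 0.242, and 0.152 and 0.211 ppm, and WT replicate 1 had a peak at the first alone, of 0.213.

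The most open Irf1 region was upstream, at -6306 bp (chr11:53763421-53764184), where WT had 3.66 and 3.25 ppm and IRF8KO 3.38 and 2.52. The genotypes overlapped (0.06, SE 0.23, adjusted p = 0.891), and only the fit without IRF8KO replicate 2 called it, at 0.635 (adjusted p = 0.00265). The comparable Irf1 regions that did not pass ranged from -0.56 to 0.58.

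Irf9 (chr14:55603571-55610030, + strand), the DNA-binding subunit of the ISGF3 complex, held 5 regions, of which only the promoter could be compared. Of the 3 WT-specific regions of the 7 genes, 2 were here. The region at +5314 bp (chr14:55608830-55609044, in the 3′ UTR) had 0.532 and 0.389 ppm in WT and no deposited peak in IRF8KO. It holds a PU.1 word, in capitals (GRCm38, + strand), shown as the one word found in this region.
Irf9 +5314 bp site, chr14:55608895-55608922: cctgcgcctcACTTCCTCttgtacagat

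The other, at +14437 bp (chr14:55617709-55618155), is the promoter region of Rec8, a meiotic cohesin subunit gene downstream of Irf9. It had 0.362 and 0.205 ppm in WT and no deposited peak in IRF8KO. Neither region had a test. In WT replicate 2 their −log10 q was 3.62 (+5314 bp) and 2.99 (+14437 bp), so neither was WT-specific at a −log10 q of 5.

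Irf4 (chr13:30749226-30766976, + strand), the closest relative of Irf8 and like it a partner of PU.1, held 8 regions, of which 3 could be compared. The region at +18716 bp (chr13:30767784-30768023), downstream of the gene, had 0.256 and 0.225 ppm in WT and 0.381 and 0.589 in IRF8KO. Both IRF8KO libraries were higher (1.29, SE 0.34, adjusted p = 0.00236), a call lost without centring (0.98, adjusted p = 0.286). The IRF8KO-specific region at +15303 bp (chr13:30764395-30764615, in the 3′ UTR) had 0.317 and 0.513 ppm. All changes at Irf4 were thus at low levels at its 3′ end, and the third comparable region, at +17807 bp, overlapped between genotypes at 0.558 to 1.47 ppm.

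**Figure D4:**
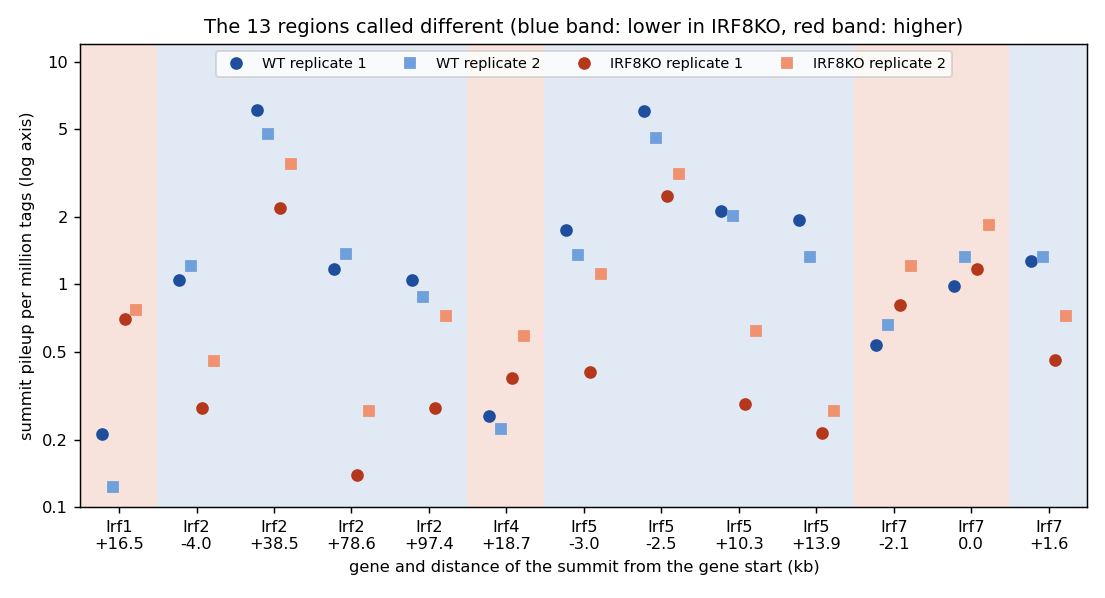
Summit pileup per 1000000 tags (y axis, log scale) in each of the 4 libraries at the 13 regions called different, with gene and distance from the gene start in kb on the x axis. Blue bands mark the 9 regions lower in IRF8KO and red bands the 4 higher ones. Blue and red points are apart in 12 of the 13 columns, the exception being the Irf7 promoter.

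Sequence words were then counted within 100 bp of each summit, on both strands, as a description of the letters and not of binding. The ETS-IRF word was in 7 of the 77 regions of the 7 genes (9.09%, against 4.3% of all regions). Among the 12 that were lower or WT-specific it was in 4 (33.3%, exact binomial 95% interval 9.92% to 65.1%), against 15.9% of all regions of that kind. These were Irf2 at +38549 and +77713 bp and Irf5 at -2456 and +10289 bp. The interval takes the 12 regions as independent, although several are neighbours within Irf2 or Irf5. It does not measure the spread between genes or libraries. The word was in 0 of the 6 members that were higher or IRF8KO-specific (2.25% of all such regions) and in 3 of the 31 not called (9.68%, against 2.8%). The last share depends on the window, as does that over all such regions. Within 50 bp the word was in 3 of the 12 (25.0%, against 11.3% of all such regions) and 1 of the 31 (3.23%, against 1.39%). Over whole regions it was in 4 of the 12 (33.3%, against 17.6%) and 5 of the 31 (16.1%, against 4.67%).

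The CEBP word was more frequent, in 16 of the 77 regions (20.8%, against 9.54% of all regions). It was in 10 of the 31 regions not called (32.3%, against 8.42% of all such regions), 3 of the 12 lower or WT-specific ones (25.0%, against 8.27%), 1 of the 6 higher or IRF8KO-specific ones (16.7%, against 18.6%) and 2 that could not be compared. PU.1 words were in 9 regions (11.7%, against 7.73%), with like shares in those lower or WT-specific (2 of 12, 16.7%, against 12.2% of all such regions) and those not called (5 of 31, 16.1%, against 9.35%), and ISRE words in 4 (5.19%, against 3.12%), 3 of which were not called. An ISRE word can overlap an ETS-IRF word, as in the printed Irf2 promoter, where both lie outside the window counted here.

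In RefSeq promoters on GRCm38 (250 bases before to 50 after a gene start), all 7 genes matched, with 9 promoters. Only Irf1 and Irf2 held any word searched. Irf1 held GAS at -90 bp (8.34% of 32619 promoters hold it) and NF-kB at -13 bp (8.51%). Irf2 held ETS-IRF at -247 bp (2.73%), ISRE at -241 bp (3.46%), GAS at -224 bp, CEBP at -118 bp (10.9%) and NF-kB at -17 bp. The NF-kB word of Irf2 runs past the end of the stretch printed above and is not in capitals there. Promoter regions of both genes did not pass the test.

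The pathway around these factors was taken as 35 genes: receptors and their kinases, signal transducers, inhibitors, sensors and adaptors upstream of IRFs, kinases of IRFs, and DNA-binding partners. Of 179 comparable regions in their windows, 21 were higher in IRF8KO (11.7%) and 26 lower (14.5%), and the median log2 difference was -0.00026. Without centring there were 3 higher and 15 lower. Among 351 regions 15 were WT-specific (4.27%) and 14 IRF8KO-specific (3.99%). These shares lie near those of all regions. Against 12.5% lower and 13.4% higher over all regions, sensors and adaptors held 12 lower and 6 higher of 62 comparable regions, receptors and kinases 8 and 7 of 49, and the DNA-binding partners 4 and 0 of 17. Of the latter, 3 were at Batf3 (of 3 comparable), 1 at Batf (of 6) and 0 at Spi1, which encodes PU.1 (of 8). Inhibitors held 0 lower and 3 higher of 27, and kinases of IRFs 2 and 4 of 16.

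Of 32 comparable promoters of the list, 1 was higher and 1 lower (3.12% each). Over all regions compared, promoter or not, the shares were 13.4% and 12.5%, and no share over all promoters was computed. The higher one was that of the RNA sensor Ifih1 (0.57, adjusted p = 0.0115). The lower one was that of the DNA-sensing receptor Tlr9 (-1.32, adjusted p = 1.08e-07). At Tlr3, a receptor for double-stranded RNA, a weak region at +430 bp was IRF8KO-specific (0.457 and 0.453 ppm), beside a stronger one at +789 bp that was open in all 4 libraries and not called (1.47 and 1.45 ppm in WT, 0.723 and 1.19 in IRF8KO, adjusted p = 0.304). The 5 largest called changes were a region at +10295 bp from Ticam1, the adaptor of TLR3 (-2.61), one at -10114 bp from Jak2 (2.42), one near Tmem173, which encodes STING (-2.40), one at -9635 bp from Socs3 (2.15) and one at +637 bp within Tlr9 (-2.04).

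For each promoter, the list genes with the nearest pattern over the 4 libraries were found, by root mean square distance of centred log2 values among 32 candidates. Irf3 and Irf9 were nearest to Jak2 (0.0247 and 0.0397) and Jak1 (0.046 and 0.0447), Irf2 to Irf2bp1 (0.025) and Ifnar2 (0.146), and Irf5 to Ifnar2 (0.0856) and Irf2bp2 (0.103). Irf1 was nearest to Spi1 (0.0667) and Ifngr2 (0.0943), and Irf4 to Tyk2 (0.0535). Irf7 had no close neighbour, with Ddx58 at 0.202 and Ifih1 at 0.256. With 4 libraries these distances are descriptions only.

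The Irf8 gene itself gave a comparison of values. Its promoter region was open in all libraries, at 2.07 and 1.49 ppm in WT and 0.863 and 1.36 in IRF8KO (-0.39, adjusted p = 0.202), which does not check the labels, since the deleted part is not given in the sources used here. Irf8 had 2 higher and 0 lower of 10 comparable regions, against 13.4% and 12.5% of all regions.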

How the data were processed

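Each ATAC-seq library had its own peak calling by the authors with MACS2 2.1.1.20160309, per the file headers, at a p cutoff of 0.01 with no control, cut sites being shifted by 37 bp and extended to 73 bp. The submitters' processing notes name Bowtie2 and mm10, and no deposited peak lay beyond a GRCm38 chromosome end. Pileup, a deposited signal, counts the extended cut sites that cover a summit and carries no correction for library size. Fold enrichment, as deposited, is the ratio of pileup to local background within a library, and the deposited q is given as −log10. The headers say that q was not calculated, but the column held values, which were used to filter peaks.

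Strict peaks (−log10 q at least 2) of the 4 libraries on the autosomes and X were merged where they overlapped by 1 bp. A region's value in a library was its highest deposited pileup, of a peak of any strength, divided by the tags in the header, which assumes that pileup scales with tag number. No value was imputed. Values on the log2 scale, centred per library, were fitted with limma 3.58.1 (R 4.3.3, trend and robust) over 58550 regions, with Benjamini-Hochberg adjustment over all of them. With 2 libraries per genotype the smallest two-sided p of an exact permutation test is 0.333, so none is given for single regions.

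The members, gene lists and tests were chosen with earlier results of these data known. Named regions are, for each gene, the promoter region (at or within 1 kb of the start), every called or genotype-specific region and the most open one. Of the pathway list, genes with a genotype-specific promoter region and the 5 largest called changes are named, and for each member promoter the 2 nearest patterns. Some items that these rules name are not reported here. Alternatives were no centring, quantile normalisation, fold enrichment in place of pileup, strict peaks in all libraries, limma without trend and robust, a replicate block, other thresholds, overlaps and windows, and each library left out. The words searched for were typed from general knowledge of these motifs, not read from a file. Promoter sequences are from RefSeq and genomic ones from the GRCm38 assembly.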

Additional observations from a re-analysis of the deposited data

How the results depend on the processing

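Depth, tag size and genotype cannot be told apart in these 4 libraries, and 2 libraries per genotype limit the precision of every difference. The cause of the changes below was not tested. Without centring, calls numbered 1637 higher and 3911 lower over all regions, 1 and 4 in the members and 3 and 15 in the pathway list, and the Irf7 promoter was at 0.362. With fold enrichment, 5310 regions were higher and 4583 lower in all, 2 and 4 in the members and 16 and 14 in the pathway list. The Irf7 promoter was then at 0.312, and the Irf5 region at -2456 bp turned from -0.60 to 0.158. With limma without trend and robust, 6366 regions were higher and 5996 lower in all, and 3 and 5 in the members. The Irf7 promoter, at 0.666, was then not called. Quantile normalisation carried the Irf2 promoter past the threshold, at -0.417. With 1 library left out, whose lone partner is assumed to vary like the other pair, calls ranged from 5580 to 8140 higher and 4708 (without WT replicate 1) to 7917 lower over all regions. They ranged from 2 to 7 higher and 5 to 8 lower in the members, and from 15 to 21 higher and 16 to 29 lower in the pathway list. The Irf7 promoter ranged from 0.26 to 1.03. WT-specific members numbered 3 to 6 and IRF8KO-specific members 2 to 8. At a −log10 q of 5 there was 1 WT-specific member of 58 (1.72%, against 5.16% of all regions). With all deposited peaks 6 of 102 were IRF8KO-specific (5.88%, against 3.65%), which turns the order of these shares. With 50 kb on each side, 7 of 165 were WT-specific (4.24%, against 5.58%) and 4 IRF8KO-specific (2.42%, against 3.86%). The regions at Irf1 +16484 bp and Irf2 +78606 bp had no value when a strict peak in all libraries was required.

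The labels give replicate numbers 1 and 2 in both genotypes without saying what a number shares. The deviations of libraries with the same number had a correlation of 0.0044, so the numbers were not taken as a pairing. A fit with the replicate number as a block gave 7882 higher and 7404 lower regions in all, and 4 and 9 in the members.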
